A study of Homo sapiens with 6 samples.

Results

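The 10 genes described here encode the trithorax side of a chromatin balance, together with the enzymes that take the polycomb mark away. They are 4 histone H3 lysine 4 (H3K4) methyltransferases (KMT2A, KMT2C, SETD1A and SETD1B), 4 subunits shared by the methyltransferase complexes (WDR5, ASH2L, RBBP5 and DPY30) and 2 histone H3 lysine 27 (H3K27) demethylases (KDM6A and KDM6B). They were chosen by gene symbol for what their products do, with earlier results of these data known. All 10 were found among the 27672 genes of the RNA-seq table. RNA was measured in 3 libraries of undifferentiated hESCs (day 0) and in 3 libraries of neuromesodermal progenitor-like cells, NMP-L (D3), made from them over 3 days. All libraries came from H9, a human embryonic stem cell line marked as wild type in the table's headers, so every value below describes 1 line.

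According to the labels, the hESCs grew without feeder cells in DEF medium. This held bFGF at 30 ng/ml and Noggin, a BMP antagonist, at 10 ng/ml, and the cells had no further treatment. The NMP-L (D3) cells were made in an N2/B27 medium to which bFGF was added at 20 ng/ml. It also held CHIR99021, a GSK3 inhibitor that activates Wnt signalling, at 3 µM. The study asked how ERK1/2 signalling and polycomb proteins act on chromatin over neural genes as cells enter spinal cord neural differentiation. The libraries here cover the step before it, from hESCs to NMP-L (D3), and only at the level of RNA.

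Polycomb repressive complex 2 (PRC2) places methyl groups on H3K27, a mark of silent developmental genes. KDM6A (UTX) and KDM6B (JMJD3) remove them. H3K4 methylation marks promoters and enhancers that are active or can become so, and in mammals it is placed by the COMPASS family of complexes. In these complexes a methyltransferase of the SET1 branch (SETD1A or SETD1B), the MLL1/MLL2 branch (KMT2A or KMT2B) or the MLL3/MLL4 branch (KMT2C or KMT2D) works with a common core of WDR5, RBBP5, ASH2L and DPY30. KDM6A is itself a subunit of the MLL3/MLL4 complexes, which joins the writing of the active mark with the removal of the repressive one.

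KDM6A and KDM6B carry the widest contrast between paired genes described below, and their promoters are shown for that reason. Each sequence runs 5′ to 3′ from 250 bases before to 50 bases after a start annotated by RefSeq on GRCh38.p14, and capitals mark CG dinucleotides, the sites of DNA methylation in vertebrates. KDM6A has 1 entry (chrX:44872938-44873237, plus strand) and KDM6B has 2 (chr17:7833967-7834266 and chr17:7839667-7839966, plus strand).
KDM6A promoter: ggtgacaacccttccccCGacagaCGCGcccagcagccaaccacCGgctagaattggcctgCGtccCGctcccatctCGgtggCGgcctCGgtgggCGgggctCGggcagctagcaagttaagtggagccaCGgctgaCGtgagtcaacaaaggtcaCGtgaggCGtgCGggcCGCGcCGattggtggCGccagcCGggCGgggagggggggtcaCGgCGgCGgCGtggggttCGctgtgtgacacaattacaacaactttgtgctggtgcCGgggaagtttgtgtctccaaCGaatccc
KDM6B promoter, upstream start: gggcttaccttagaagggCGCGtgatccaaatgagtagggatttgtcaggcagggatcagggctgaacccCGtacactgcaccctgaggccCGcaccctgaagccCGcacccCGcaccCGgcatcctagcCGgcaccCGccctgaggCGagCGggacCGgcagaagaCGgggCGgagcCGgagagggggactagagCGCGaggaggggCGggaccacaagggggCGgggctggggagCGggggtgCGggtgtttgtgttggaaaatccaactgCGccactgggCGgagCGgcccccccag
KDM6B promoter, downstream start: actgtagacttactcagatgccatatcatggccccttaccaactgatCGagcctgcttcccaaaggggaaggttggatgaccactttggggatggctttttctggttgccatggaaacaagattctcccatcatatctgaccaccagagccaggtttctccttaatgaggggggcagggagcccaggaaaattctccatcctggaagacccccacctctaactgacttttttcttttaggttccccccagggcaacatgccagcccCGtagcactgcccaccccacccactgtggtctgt
The KDM6A window held 29 CG dinucleotides and the upstream KDM6B window 24, against a median of 14 over 35116 promoters of the same length. The downstream KDM6B window held 2. Of the 10 genes, 7 had an entry in this promoter table, and SETD1B, ASH2L and DPY30 did not. The gene-level counts do not say which KDM6B start was used. The letters CTTTGAT, a core of the binding site of TCF/LEF factors of the Wnt pathway, were searched on both strands and were found in none of the windows of these 7 genes. They occur in 2.62% of all promoters searched, so their absence from so few windows says little. GC boxes (GGGCGG) and the letters CCGGAAG of ETS factors, in 45.0% and 10.3% of all promoters, were searched as well. GC boxes had 2 matches in the KDM6A window, 5 in the upstream KDM6B window and 0 in the downstream one. The ETS letters had 1 match, in a WDR5 window.

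The libraries held between 19454543 and 23036426 expected counts each, which are the read counts per gene estimated by RSEM. All 10 genes lay far above a floor of 3 counts, the lowest value being 288 counts (KDM6B in hESC replicate 2). The markers set for the label check moved with the labels, since 5 of 5 markers of undifferentiated stem cells were lower in NMP-L (D3) and 6 of 7 NMP-L markers were higher. T, the mesodermal factor brachyury, averaged 0.0300 ± 0.0520 TPM in hESCs and 19.6 ± 6.50 TPM in NMP-L (D3) (SD, n = 3). NANOG, a pluripotency factor, averaged 93.1 ± 6.42 and 16.5 ± 0.612 TPM (SD, n = 3). FGF17, on the NMP-L list and named after its values were seen, was the exception with 8.14 ± 1.70 TPM in hESCs and 1.15 ± 0.465 TPM in NMP-L (D3) (SD, n = 3). SOX2, which marks both states, averaged 219 ± 14.0 and 245 ± 29.6 TPM (SD, n = 3). Of the markers of other lineages, the summed endoderm list rose from 2.06 to 3.42 TPM in the hESC libraries to 14.0 to 26.0 TPM in the NMP-L (D3) libraries. That rise came from FOXA2, named here after its values were seen, while SOX17 was at or near 0 in all 6 libraries. The 4 paraxial mesoderm markers summed to 13.7 to 17.4 TPM in hESCs and 5.28 to 7.29 TPM in NMP-L (D3). This fall came from TBX6 and TCF15, named after their values were seen, with log2 fold changes of -1.24 and -1.95. MSGN1 and MEOX1 went the other way, from 0 in every hESC library to means of 0.85 and 0.033 TPM in NMP-L (D3). The 4 neural crest markers summed to 24.7 to 29.2 and 2.94 to 3.71 TPM, the 4 neural progenitor markers to 0.470 to 0.920 and 4.92 to 6.88 TPM, and the 3 trophectoderm markers to 44.7 to 51.1 and 67.3 to 71.5 TPM. The part of other cell types in the results below was not tested. In bulk RNA, a change in the share of some cells cannot be told apart from a change in RNA per cell.

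The libraries also differed in how counts followed the GC content of transcripts. The curve of counts over GC content, on the log2 scale relative to the mean of the libraries, stood at -0.18 and -0.12 at a GC content of 40% and at 0.16 and 0.15 at 60% in hESC replicates 2 and 3. In NMP-L (D3) replicates 2 and 3 it had the opposite tilt, with 0.08 and 0.17 at 40% and -0.11 and -0.18 at 60%. The curves of hESC replicate 1 and NMP-L (D3) replicate 1 stayed between -0.01 and 0.06 at these contents. In their longest annotated transcripts the 10 genes span this range, from 36.4% for KDM6A to 62.3% for SETD1A. Values corrected for GC content and transcript length are therefore given beside those of the uncorrected fit. For KDM6A and DPY30 this transcript (12117 and 1519 bases) is longer than their counts set against their TPM imply. Corrected values of these genes are therefore uncertain. The correction was added after the data were seen.

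In TPM, which is per transcript length and so allows levels of different genes to be compared, the core subunits were the most abundant of the 10 transcripts, apart from RBBP5. DPY30 led in hESCs at 158 ± 13.1 TPM, ahead of ASH2L at 97.4 ± 3.87 and WDR5 at 83.3 ± 4.11 TPM (SD, n = 3 throughout). KDM6A followed at 28.3 ± 3.41, SETD1A at 21.8 ± 1.37, RBBP5 at 16.6 ± 1.34, KMT2A at 14.9 ± 1.99, SETD1B at 12.1 ± 1.02, KMT2C at 9.00 ± 1.50 and KDM6B at 5.21 ± 0.681 TPM. In this order the libraries of RBBP5 overlapped with those of KMT2A, and those of KMT2A with those of SETD1B, while all other neighbours were apart. The transcripts of the 4 methyltransferases were thus present at lower levels than those of DPY30, ASH2L and WDR5 in every library.

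The top of the order was the same in NMP-L (D3), and the lower part was rearranged. DPY30 averaged 153 ± 18.7, ASH2L 86.6 ± 4.39, WDR5 82.6 ± 2.57 and KDM6A 27.2 ± 1.62 TPM. RBBP5 at 19.6 ± 1.15 TPM now stood above SETD1A at 17.6 ± 0.668 TPM. SETD1B at 17.3 ± 1.05 TPM stood above KMT2A at 12.6 ± 0.753 TPM, and KDM6B at 9.42 ± 0.318 TPM above KMT2C at 7.14 ± 0.364 TPM. ASH2L and WDR5 overlapped, as did SETD1A and SETD1B, and no other neighbours did.

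**Figure D1:**
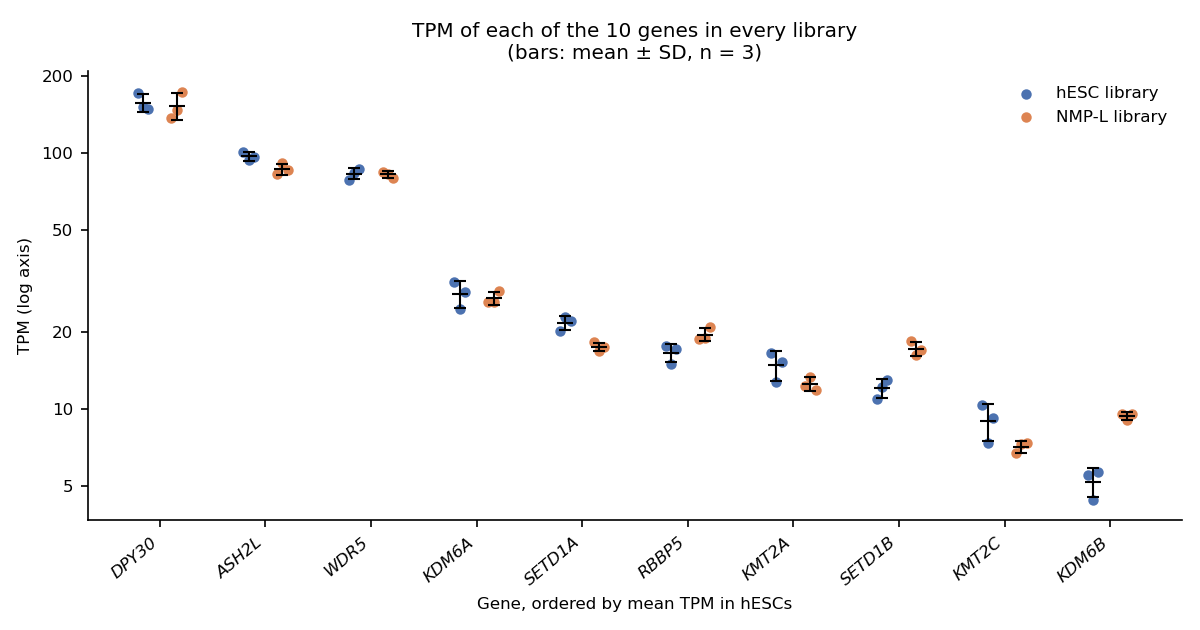
TPM of the 10 genes on a log axis, with a point for each of the 3 hESC and 3 NMP-L (D3) libraries and black marks for the mean ± SD. KDM6B and SETD1B sit higher in all NMP-L (D3) libraries than in any hESC library, whereas the points of DPY30, WDR5 and KDM6A are mixed.

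NMP-L (D3) and hESC counts were compared by edgeR's quasi-likelihood test over all 15517 genes that passed its expression filter, with p-values adjusted by the Benjamini-Hochberg method and a threshold of 0.05. All 10 genes passed the filter. KDM6B and SETD1B were higher in NMP-L (D3). KMT2A, KMT2C, SETD1A and ASH2L were lower, although none of the 4 was lower when counts were scaled to GAPDH, which shifts all genes upwards as described below. WDR5, RBBP5, DPY30 and KDM6A did not pass the threshold. These 6 of 10 are to be read against 55.8% of all genes tested, of which 29.1% were higher and 26.7% lower, so the number of changed genes does not set this group apart. The median log2 fold change was -0.15 over the 10 genes and 0.03 over all genes tested.

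Directions are given on the TMM scale, which sets library sizes by genes of middling change. The libraries of the conditions did not overlap in CPM, counts scaled to the size of the library, for 7 of the 10 genes, and the same held for 61.6% of all genes tested. The largest change among the 10 was 1.69-fold, so differences between these genes lie in modest shifts of relative level.

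**Figure D2:**
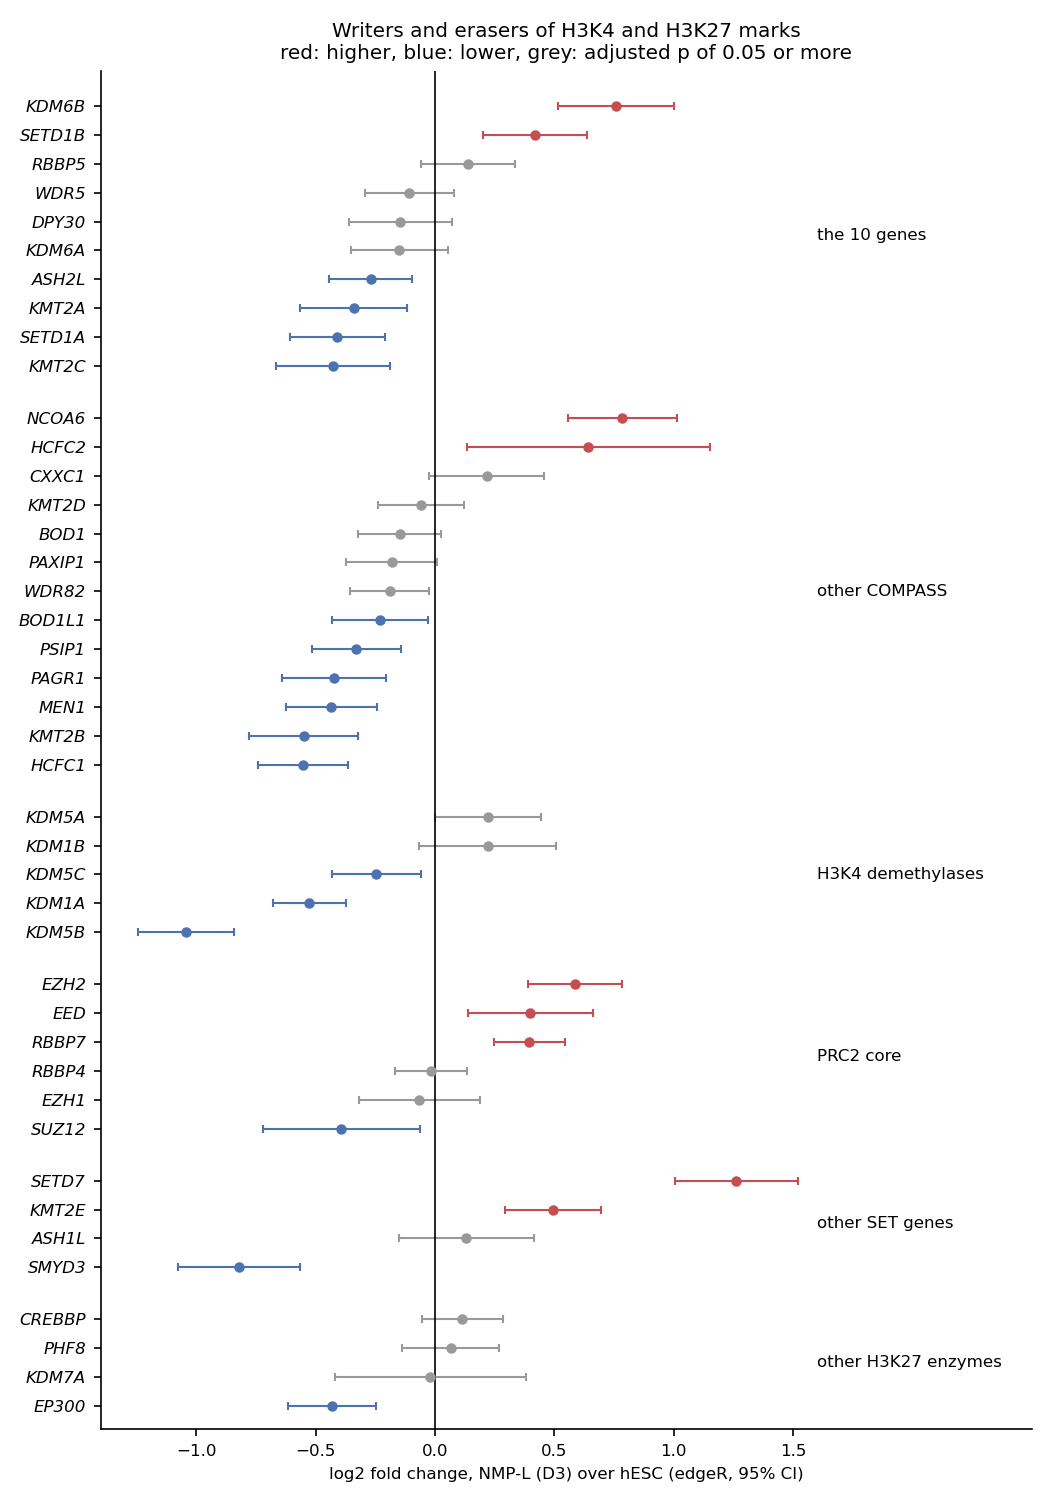
Log2 fold change of NMP-L (D3) over hESC with its 95% confidence interval for the 10 genes and 5 lists of other genes that act on H3K4 or H3K27. Red marks genes higher and blue genes lower on the TMM scale at an adjusted p under 0.05, and the intervals of the 10 genes lie between -0.67 and 1.00.

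Of the H3K27 demethylases, KDM6B rose on the TMM scale and KDM6A did not pass the test. KDM6B (JMJD3; chr17:7737535-7758114, plus strand, GRCh37) is an inducible demethylase of H3K27. It was at 5.54, 4.43 and 5.67 TPM in hESC replicates 1 to 3, and at 9.61, 9.05 and 9.59 TPM in NMP-L (D3) replicates 1 to 3. All 3 NMP-L (D3) libraries stood above all hESC libraries, with hESC replicate 2 the lowest. In CPM the means were 17.0 ± 1.95 and 28.8 ± 0.959 (SD, n = 3), a log2 fold change of 0.76 ± 0.11 (SE; 95% confidence interval 0.51 to 1.00; adjusted p = 0.00014, edgeR). With any 1 library left out the log2 fold change stayed between 0.66 and 0.80 and passed the threshold each time. Relative to HPRT1 counts it was 0.46 and did not pass (adjusted p = 0.059, edgeR).

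KDM6A (UTX; chrX:44732434-44972024, plus strand, GRCh37) has the same substrate and works within the MLL3/MLL4 complexes. It was at 31.5, 24.7 and 28.8 TPM in the hESC libraries and at 26.2, 26.3 and 29.1 TPM in the NMP-L (D3) libraries. The groups overlapped, with hESC replicate 1 the highest and hESC replicate 2 the lowest of the 6 libraries. The log2 fold change was -0.15 ± 0.09 (SE; 95% confidence interval -0.35 to 0.05; adjusted p = 0.19, edgeR), which leaves room for a fall of up to 0.35 on the log2 scale. Without hESC replicate 2 it was -0.23 with an adjusted p of 0.044, and after the correction for GC content and length it was -0.34 with an adjusted p of 0.0020. This corrected value rests on a transcript longer than the counts imply.

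KDM6A transcripts remained more abundant than KDM6B transcripts in every library, but the gap narrowed. A ratio of 2 genes within a library is free of the scaling between libraries. The ratio of KDM6B to KDM6A in TPM was 0.176, 0.179 and 0.197 in hESC replicates 1 to 3, and 0.367, 0.344 and 0.330 in NMP-L (D3) replicates 1 to 3. The ratio was 1.88-fold higher in NMP-L (D3), a log2 difference of 0.91, and the conditions did not overlap (SD of the log2 ratio 0.09 in hESCs and 0.08 in NMP-L (D3), n = 3). The exact two-sided permutation p was 0.10, the smallest that 3 against 3 libraries can give, and 0.25 after adjustment over the 5 pairs compared, so no pair could pass a threshold of 0.05. In their longest transcripts KDM6A and KDM6B differ in GC content (36.4% and 62.2%). After the correction for GC content and length the difference of their log2 fold changes was 1.33, which shares the uncertainty of the corrected KDM6A value.

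In the SET1 branch the pair of methyltransferases moved in opposite directions on the TMM scale, while SETD1B alone passed the test on the GAPDH scale and SETD1A alone on the HPRT1 scale. SETD1A and SETD1B are close relatives that place H3K4 trimethylation, mainly at active promoters. SETD1B (chr12:122241915-122270562, plus strand, GRCh37) was at 11.0, 12.2 and 13.0 TPM in the hESC libraries and at 18.4, 16.3 and 17.0 TPM in the NMP-L (D3) libraries. The conditions were well apart, with hESC replicate 1 the lowest and NMP-L (D3) replicate 1 the highest. Its CPM went from 49.2 ± 4.64 to 65.8 ± 4.97 (SD, n = 3), a log2 fold change of 0.42 ± 0.10 (SE; 95% confidence interval 0.20 to 0.64; adjusted p = 0.0036, edgeR). Relative to HPRT1 counts it was 0.11 (adjusted p = 0.66, edgeR).

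SETD1A (chr16:30968615-30995985, plus strand, GRCh37) was at 20.3, 23.0 and 22.1 TPM in the hESC libraries and at 18.3, 16.9 and 17.5 TPM in the NMP-L (D3) libraries. Every NMP-L (D3) library was below every hESC library. The CPM fell from 69.6 ± 5.67 to 52.5 ± 2.81 (SD, n = 3), a log2 fold change of -0.41 ± 0.09 (SE; 95% confidence interval -0.61 to -0.21; adjusted p = 0.0026, edgeR). Relative to HPRT1 counts it was -0.71 (adjusted p = 0.00063, edgeR) and relative to GAPDH counts 0.15 (adjusted p = 0.20, edgeR). After the correction for GC content and length the fall was smaller, at -0.18 with an adjusted p of 0.022, while SETD1B stood at 0.65.

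The outcome was a near 1-to-1 balance of the SET1 transcripts in NMP-L (D3). The ratio of SETD1B to SETD1A in TPM was 0.542, 0.532 and 0.589 in hESC replicates 1 to 3 and 1.01, 0.966 and 0.975 in NMP-L (D3) replicates 1 to 3. This is a 1.77-fold higher ratio, a log2 difference of 0.83 with no overlap (SD of the log2 ratio 0.08 and 0.03, n = 3). The exact two-sided permutation p was 0.10, again the smallest possible, and 0.25 adjusted over the 5 pairs. SETD1A and SETD1B are alike in GC content (62.3% and 61.4%), and the difference of their log2 fold changes was 0.83 with and without the correction for GC content and length.

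**Figure D3:**
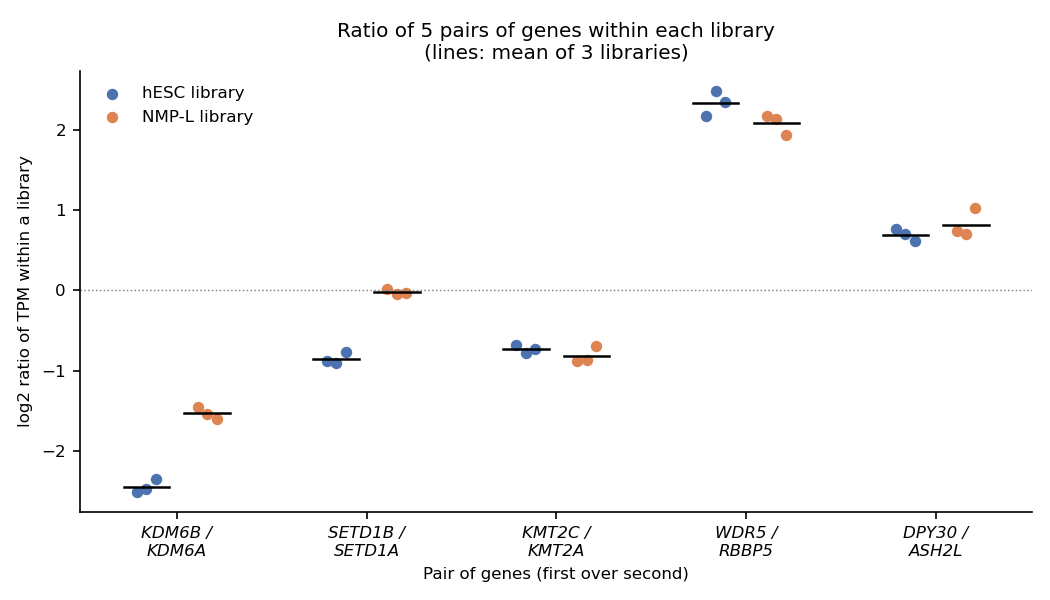
Log2 ratio of TPM within each library for 5 pairs of genes, with points for the 3 hESC and 3 NMP-L (D3) libraries and lines for their means. The ratios of KDM6B to KDM6A and of SETD1B to SETD1A are apart between the conditions, and the other 3 pairs overlap.

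The MLL-branch methyltransferases among the 10 both fell by a small amount on the TMM scale, but not relative to GAPDH. KMT2A (MLL1; chr11:118307171-118397547, plus strand, GRCh37), known for maintaining HOX gene expression, was at 16.7, 12.7 and 15.4 TPM in the hESC libraries and at 12.4, 13.4 and 11.9 TPM in the NMP-L (D3) libraries. In TPM the conditions overlapped, because hESC replicate 2 lay below NMP-L (D3) replicate 2. In CPM they did not, with 124 ± 14.2 in hESCs and 97.5 ± 8.64 in NMP-L (D3) (SD, n = 3). The log2 fold change was -0.34 ± 0.10 (SE; 95% confidence interval -0.56 to -0.12; adjusted p = 0.014, edgeR). The call was lost without NMP-L (D3) replicate 3 (-0.27, adjusted p = 0.060) and with TPM in place of counts (-0.24, adjusted p = 0.12, limma).

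KMT2C (MLL3; chr7:151832007-152133729, minus strand, GRCh37) places H3K4 monomethylation at enhancers. It was at 10.4, 7.41 and 9.21 TPM in the hESC libraries and at 6.72, 7.33 and 7.37 TPM in the NMP-L (D3) libraries. The conditions did not overlap, but hESC replicate 2 lay just above the NMP-L (D3) libraries. In CPM the means were 75.8 ± 11.2 and 56.3 ± 2.53 (SD, n = 3), a log2 fold change of -0.43 ± 0.11 (SE; 95% confidence interval -0.67 to -0.19; adjusted p = 0.0058, edgeR). With TPM in place of counts it was -0.32 with an adjusted p of 0.089 (limma). The ratio of KMT2C to KMT2A overlapped between the conditions, with 0.602 ± 0.0213 in hESCs and 0.570 ± 0.0422 in NMP-L (D3) (SD, n = 3; exact permutation p = 0.30, 0.38 adjusted over the 5 pairs).

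Each of the 3 COMPASS branches has a pair of methyltransferases in mammals, and 2 of the 6 genes, KMT2B and KMT2D, lie outside the 10. Their share of the summed TPM is given here for completeness and was chosen after their values were seen. The 6 methyltransferases summed to 91.4 ± 3.90 TPM in hESCs and 82.8 ± 1.86 TPM in NMP-L (D3) (SD, n = 3). SETD1B made up 13.2 ± 0.955% of the sum in hESCs and 20.8 ± 0.801% in NMP-L (D3). The share of SETD1A was 23.9 ± 1.99% and 21.2 ± 0.351%, and that of KMT2B, the close relative of KMT2A, was 23.1 ± 1.83% and 18.6 ± 1.36%. KMT2A held 16.3 ± 1.95% and 15.2 ± 1.12%, KMT2C 9.84 ± 1.53% and 8.63 ± 0.621%, and KMT2D 13.7 ± 0.884% and 15.6 ± 0.988%. SETD1B thus went from a share next to that of KMT2D, with overlapping libraries, to a share next to that of SETD1A.

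**Figure D4:**
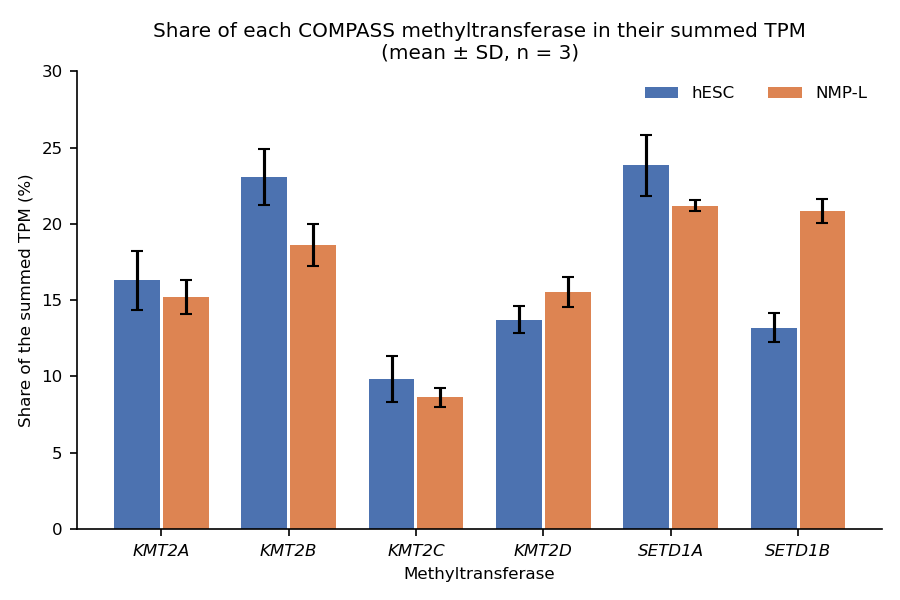
Share of each of the 6 COMPASS methyltransferases in their summed TPM, as the mean of 3 libraries per condition with the SD. The bar of SETD1B goes from 13.2% in hESCs to 20.8% in NMP-L (D3), and the bar of KMT2B from 23.1% to 18.6%.

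The log2 fold changes of the 4 core subunits lay between -0.27 and 0.14, and 1 of the 4 passed the test. ASH2L (chr8:37963011-38001594, plus strand, GRCh37), which joins RBBP5 in stimulating the catalytic subunit, was at 101, 93.8 and 96.9 TPM in the hESC libraries and at 82.8, 91.4 and 85.7 TPM in the NMP-L (D3) libraries. The conditions did not overlap, and NMP-L (D3) replicate 2 came near to hESC replicate 2. The CPM means were 141 ± 3.18 and 117 ± 7.92 (SD, n = 3), a log2 fold change of -0.27 ± 0.08 (SE; 95% confidence interval -0.44 to -0.10; adjusted p = 0.013, edgeR). The call was lost without NMP-L (D3) replicate 1 (-0.25, adjusted p = 0.051) and with TPM in place of counts (-0.17, adjusted p = 0.053, limma).

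WDR5 (chr9:137000487-137025090, plus strand, GRCh37), the scaffold that docks the methyltransferase on the core, was at 79.0, 83.9 and 87.1 TPM in the hESC libraries and at 84.8, 83.3 and 79.8 TPM in the NMP-L (D3) libraries. The libraries of the conditions were fully mixed. Its log2 fold change was -0.11 ± 0.09 (SE; 95% confidence interval -0.29 to 0.08; adjusted p = 0.30, edgeR). WDR5 was the 1 gene of the 10 with a fractional expected count in some library, a sign of reads that RSEM divided between genes.

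RBBP5 (chr1:205055270-205091143, minus strand, GRCh37), which forms the catalytic module with ASH2L, was at 17.6, 15.1 and 17.2 TPM in the hESC libraries and at 18.8, 19.0 and 20.9 TPM in the NMP-L (D3) libraries. All NMP-L (D3) libraries were above all hESC libraries, and yet the log2 fold change was only 0.14 ± 0.09 (SE; 95% confidence interval -0.06 to 0.34; adjusted p = 0.21, edgeR). After the correction for GC content and length it was 0.02.

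DPY30 (chr2:32092878-32264874, minus strand, GRCh37), a small subunit that binds ASH2L, was at 173, 152 and 148 TPM in the hESC libraries and at 138, 148 and 174 TPM in the NMP-L (D3) libraries. The highest and the lowest of the 6 values both belonged to NMP-L (D3). The log2 fold change was -0.14 ± 0.10 (SE; 95% confidence interval -0.36 to 0.07; adjusted p = 0.23, edgeR), and after the correction for GC content and length it was -0.31 with an adjusted p of 0.0012. The corrected value rests on a transcript longer than the counts imply. In the GENCODE annotation DPY30 shares 1385 exon bases on the same strand with MEMO1, which had a mean of 625.5 counts. The expected counts of DPY30 were whole numbers in all 6 libraries, so they show no sign of reads that RSEM divided between genes.

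Among the core, the ratio of WDR5 to RBBP5 was 5.04 ± 0.537 in hESCs and 4.24 ± 0.367 in NMP-L (D3) (SD, n = 3; exact permutation p = 0.20, 0.33 adjusted over the 5 pairs). The ratio of DPY30 to ASH2L was 1.62 ± 0.0855 and 1.77 ± 0.226 (SD, n = 3; exact permutation p = 0.50, 0.50 adjusted). Both overlapped between the conditions. The 95% confidence intervals of WDR5, RBBP5, DPY30 and KDM6A all fell within 0.36 of no change on the log2 scale.

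Scaling to a reference gene shifts the log2 fold changes of all genes alike, so such values are read against the median of all genes on the same scale. GAPDH and HPRT1 are common reference genes of RT-qPCR. GAPDH, a glycolytic enzyme, was itself lower in NMP-L (D3), with a log2 fold change of -0.55 ± 0.08 (SE, adjusted p = 0.00014, edgeR), and HPRT1, an enzyme of purine salvage, stood at 0.28 ± 0.12 (SE, adjusted p = 0.069, edgeR). Relative to GAPDH counts the median over all genes moved from 0.03 to 0.59. On this scale 7 of the 10 genes were higher in NMP-L (D3) and 0 were lower, against 64.6% of all genes tested that were higher. KMT2A, KMT2C and SETD1A then had log2 fold changes of 0.21, 0.13 and 0.15 and did not pass the threshold, and ASH2L stood at 0.29 (adjusted p = 0.031, edgeR).

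Relative to HPRT1 counts the median over all genes was -0.27. On that scale 6 of the 10 genes were lower and 0 were higher, against 34.1% of all genes tested that were lower. As the shift was common to all genes, the values relative to the median hardly moved. KDM6B lay 0.73 above the median on the TMM, GAPDH and HPRT1 scales, and SETD1B 0.39, 0.39 and 0.38 above it. KMT2C lay below it by a log2 difference of -0.46, -0.46 and -0.45 and SETD1A by -0.44 on all 3 scales. A sign turned by a reference gene therefore follows from the size of the shift and says nothing particular about that gene.

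**Figure D5:**
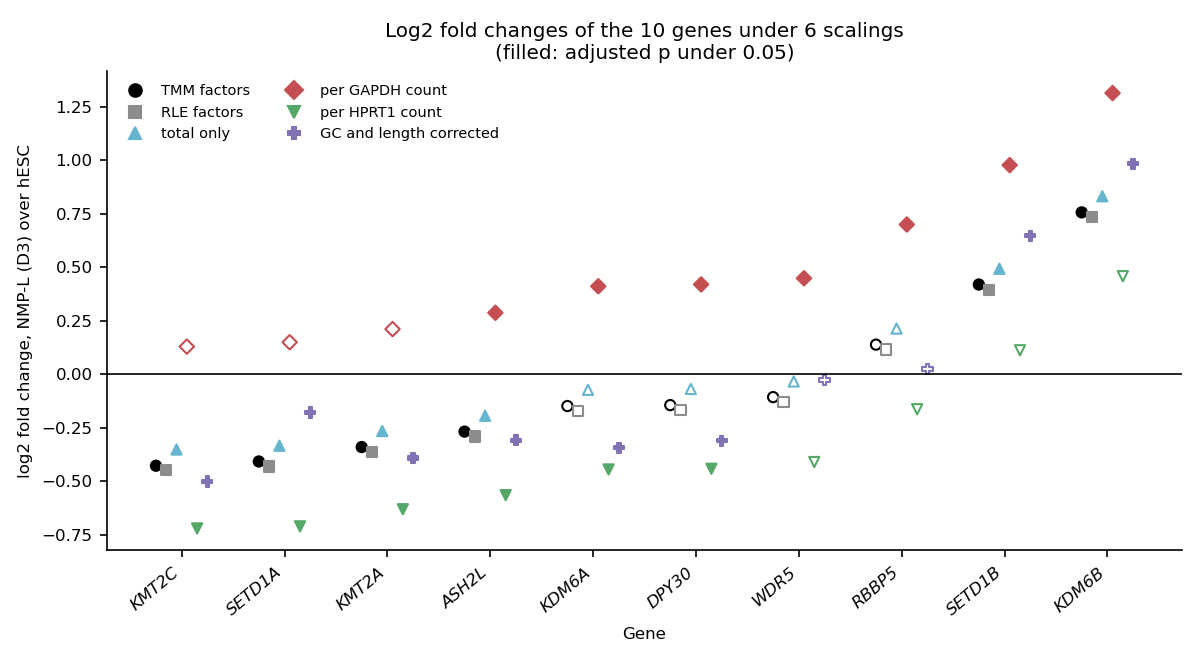
Log2 fold change of the 10 genes under 6 scalings, with filled symbols where the adjusted p was under 0.05. KDM6B and SETD1B lie above 0 on each scale, and the symbols for GAPDH lie above and those for HPRT1 below the others for each gene, a shift that all genes share.

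With the correction for GC content and length, 8 of the 10 genes passed the threshold, 2 higher and 6 lower, against 64.3% of the 14526 genes that could be corrected. Among the 6 lower were KDM6A and DPY30, whose corrected values are uncertain as said above. KDM6B was then at 0.98 and SETD1B at 0.65, KMT2C at -0.50, KMT2A at -0.39 and ASH2L at -0.31. The GC-rich genes KDM6B, SETD1A, SETD1B and WDR5 moved upwards under the correction and the other 6 moved downwards. Differences between paired genes unlike in GC content moved with it, since that of WDR5 and RBBP5 went from -0.25 to -0.05 and that of DPY30 and ASH2L from 0.12 to 0.00. The GC curve of hESC replicate 1 differed from those of the other hESC libraries. Without it the uncorrected values were 0.77 for KDM6B, 0.32 for SETD1B, -0.50 for SETD1A, -0.35 for KMT2C, -0.29 for KMT2A and -0.28 for ASH2L. All 6 passed the threshold. This fit keeps hESC and NMP-L (D3) replicates 2 and 3, whose curves tilt in opposite directions, so it cannot show what the GC difference does. SETD1A and SETD1B lay further from their corrected values of -0.18 and 0.65 than with all libraries. So did KMT2C and KMT2A, while KDM6B and ASH2L lay slightly nearer to theirs.

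Of 13 remaining subunits of the COMPASS complexes, all tested, 2 were higher and 6 were lower on the TMM scale, against 7 and 0 on the GAPDH scale and 1 and 9 on the HPRT1 scale. The other 5 did not pass the threshold, and the list had a median log2 fold change of -0.19. HCFC1, a subunit of the SET1 and MLL1/MLL2 complexes, fell from 62.6 ± 4.17 to 45.6 ± 2.39 TPM (SD, n = 3), a log2 fold change of -0.55 ± 0.09 (SE, adjusted p = 0.00020, edgeR), which went to 0.00 relative to GAPDH. NCOA6, a subunit particular to the MLL3/MLL4 complexes, rose from 6.70 ± 0.617 to 11.6 ± 0.613 TPM (SD, n = 3), a log2 fold change of 0.78 ± 0.10 (SE, adjusted p = 6.4e-05, edgeR). The rise of NCOA6 was close in size to that of KDM6B and passed the test on the GAPDH and HPRT1 scales as well.

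Of 5 H3K4 demethylases, which remove this methylation, 0 were higher and 3 were lower on the TMM scale, against 3 higher and 1 lower on the GAPDH scale. KDM5B, which removes H3K4 trimethylation, showed the largest fall among the genes of these lists, from 123 ± 18.0 to 63.9 ± 1.72 TPM (SD, n = 3), a log2 fold change of -1.04 ± 0.09 (SE, adjusted p = 2.4e-06, edgeR), and of -0.49 relative to GAPDH (adjusted p = 0.0074, edgeR). On the side of PRC2, 3 of 6 core subunits were higher and 1 was lower on the TMM scale, against 5 and 0 on the GAPDH scale and 0 and 1 on the HPRT1 scale. EZH2, the catalytic subunit, rose from 33.6 ± 1.78 to 53.8 ± 4.55 TPM (SD, n = 3), a log2 fold change of 0.59 ± 0.09 (SE, adjusted p = 0.00019, edgeR), and of 0.28 relative to HPRT1 (adjusted p = 0.22, edgeR). SUZ12, a scaffold of PRC2, had a log2 fold change of -0.39 ± 0.15 (SE, adjusted p = 0.043, edgeR) while its libraries overlapped between the conditions, and it did not pass in 9 of 20 alternatives. Among these were 4 of the 6 fits with 1 library left out (hESC replicate 1 or 3, NMP-L (D3) replicate 1 or 2), in which it ranged from -0.55 to -0.26 over all 6. Relative to GAPDH it was at 0.18. The H3K27 methyltransferase EZH2 and the H3K27 demethylase KDM6B were therefore both higher in NMP-L (D3) on the TMM scale, and neither passed the test on the HPRT1 scale.

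Of 5 other SET-domain genes linked to H3K4, 4 were tested, and 2 were higher and 1 was lower on the TMM scale, against 3 and 0 on the GAPDH scale. SETD7, a monomethyltransferase, rose from 3.92 ± 0.168 to 9.54 ± 1.39 TPM (SD, n = 3), a log2 fold change of 1.26 ± 0.12 (SE, adjusted p = 3.9e-06, edgeR). SMYD3 fell from 24.8 ± 1.56 to 14.8 ± 0.885 TPM (SD, n = 3), a log2 fold change of -0.82 ± 0.12 (SE, adjusted p = 0.00011, edgeR), and of -0.27 relative to GAPDH (adjusted p = 0.058, edgeR). Of 4 other enzymes that demethylate or acetylate H3K27, 0 were higher and 1 was lower on the TMM scale, against 2 and 0 on the GAPDH scale. The lower gene was EP300, an acetyltransferase of active enhancers, at 61.1 ± 6.53 TPM in hESCs and 48.3 ± 0.822 TPM in NMP-L (D3) (SD, n = 3), a log2 fold change of -0.43 ± 0.08 (SE, adjusted p = 0.0010, edgeR), and of 0.12 relative to GAPDH. On the TMM scale the changed genes of all these lists are to be read against 55.8% of all genes tested, with 29.1% higher and 26.7% lower. On the GAPDH scale 11455 of the 15517 genes tested were called, and 64.6% of those tested were higher. On the HPRT1 scale 7087 were called, and 34.1% of those tested were lower. No list was tested as a set.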

How the data were processed

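Polyadenylated RNA of 3 hESC and 3 NMP-L (D3) libraries of H9 cells gave single-end reads (76 bp). The authors deposited expected counts from RSEM, not normalized between libraries, and in the same table TPM values, scaled by effective length to a fixed total per library. The submitters' processing notes name cutadapt 1.9.1, STAR 2.5.2a, RSEM 1.3.0, DESeq2 1.12.3 and hg19. The annotation and strandedness are not given in the sources used here. For hESC culture the labels and the study's Methods differ, and the labels were followed. They also differ on Noggin and an inhibitor of TGFβ signalling, which the Methods add late in NMP-L differentiation, and here too the labels were followed. The labels call the libraries biological replicates, and p-values cover the spread between them.

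Expected counts were rounded and fitted with edgeR 4.0.16 under R 4.3.3 (filterByExpr with a minimum count of 10, TMM, glmQLFit, glmQLFTest, condition only). CPM are scaled by TMM. The SE is the size of the log2 fold change divided by the square root of F. Permutation tests used log2 TPM ratios. Alternatives used limma 3.58.1 on log2 TPM (pseudocounts 0.1 and 1) and DESeq2 1.42.0. The scripts were tested on simulated data. The correction for GC content and length used lowess curves (span 0.3) and the longest GENCODE transcript on GRCh37, matched by symbol for 23876 genes.

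The 10 genes and the lists were chosen with earlier results of these data known. Beside the 10, the genes named were all called genes of a list with a log2 fold change of at least 1 in size, or else the largest called change in each direction, with GAPDH, HPRT1 and label markers. The number of libraries limits the precision.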

Additional observations from a re-analysis of the deposited data

How the results depend on the processing

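The number of the 10 genes past the threshold was 6 and ranged from 5 to 7 with 1 library left out, with 2 higher throughout and 3 to 5 lower. In those fits 7255 to 8891 of all genes were called. With limma on TPM the number was 3 (1 lower) at either pseudocount, against 8721 and 8740 of 15517 genes. At pseudocount 0.1 the median of all genes was 0.12. Relative to it KMT2A, KMT2C and ASH2L, which lost their calls, stood at -0.36, -0.44 and -0.29. On the TMM scale they stood at -0.37, -0.46 and -0.30 relative to the median. On the GAPDH scale 7 genes rose and 0 fell, and on the HPRT1 scale 0 rose. The signs that turned on the GAPDH scale were those of KMT2A (0.21), KMT2C (0.13), SETD1A (0.15), WDR5 (0.45), ASH2L (0.29), DPY30 (0.42) and KDM6A (0.41), and on the HPRT1 scale that of RBBP5 (-0.16). These scales move the median of all genes to 0.59 and -0.27, and the turned signs follow from that shift. Of the other lists, the H3K27 enzymes had 2 called genes in place of 1 on the GAPDH scale and with the GC correction, with or without the block, and the PRC2 subunits had 1 in place of 4 on the HPRT1 scale. With 1 library left out, the called genes ranged from 2 to 4 for PRC2, 2 to 4 for the H3K4 demethylases and 6 to 7 for the other COMPASS subunits. The other totals of called genes stayed within 1.5 times, but the split by direction did not. On the GAPDH scale the higher and lower calls went from 2 and 6 to 7 and 0 for the other COMPASS subunits, from 0 and 3 to 3 and 1 for the H3K4 demethylases and from 3 and 1 to 5 and 0 for PRC2.

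No pairing of same-numbered libraries of the conditions was seen in these data (correlations of their deviations -0.46, -0.04 and -0.17, and 0 of 3 hESC libraries correlated best with their own number). Deviations from means of 3 libraries that also differ in GC curves cannot exclude that the cultures were run in pairs. With the replicate block, 7560 in place of 8653 genes and 5 of the 10 were called, ASH2L having an adjusted p of 0.054. The within-library ratios had the same differences with the block (0.91 for KDM6B to KDM6A and 0.83 for SETD1B to SETD1A, with exact p = 0.25, the smallest 3 pairs allow).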
